A study of Mus musculus with 22 samples.

Results

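Polycomb and other chromatin regulators, 43 genes chosen by symbol, were followed across the retinal glia and retinal progenitors of the mouse. All 43 were found in the count table of 44792 genes, and all 43 were among the 18931 genes that passed the filter on low counts. RNA was sequenced from retinal progenitor cells (RPCs) of embryonic day 12.5 (3 libraries), from Müller glia of young mice whose eyes had received an intravitreal injection of NMDA 2 days earlier (3 libraries), from Müller glia of aged mice of 1.5 years (2 libraries) and from Müller glia of untreated young mice of 2 to 3 months (2 libraries). All mice were C57BL/6, and Müller cells were sorted by flow cytometry on green fluorescence from an Rlbp1-GFP reporter. A Müller sample is therefore the set of cells that passed that gate. How the RPCs were isolated is not described here. NMDA overstimulates glutamate receptors and is toxic to inner retinal neurons, and Müller glia, the support cells of the retina, react to the damage. Reduced representation bisulfite sequencing (RRBS), which reads cytosine methylation in CpG-rich fragments, was available for 3 libraries in each of the 4 groups. The labels describe RRBS libraries, and RNA libraries of aged and young cells, as biological replicates and give the RPC and NMDA RNA libraries as replicates without further detail, so that p-values measure the spread between these samples.

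Polycomb proteins keep developmental genes silent. Polycomb repressive complex 2 (PRC2) methylates lysine 27 of histone H3 through Ezh2 or its paralog Ezh1, and Polycomb repressive complex 1 (PRC1) reads that mark through Cbx proteins and ubiquitinates histone H2A through Ring1 or Rnf2. The other regulators add or remove methyl and acetyl groups on histones, slide or evict nucleosomes, or silence repeats and heterochromatin. In many developing tissues Ezh2 is used by dividing precursors and Ezh1 by cells that have left the cycle.

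The promoters of Ezh2, Suz12, Hells and Ezh1 are shown because the first 3 were the ones in which an E2F-type element was found by its letters, and Ezh1 is the paralog of Ezh2 that ran the other way between progenitors and glia. They are RefSeq sequences on GRCm38.p6, read 5′ to 3′ along the gene from 250 bases before to 50 after the start site. Capitals mark the letters of an E2F-type element, the element through which E2F factors act on genes of the cell cycle. The Ezh2 promoter is chr6:47594981-47595280 on the minus strand, Suz12 is chr11:79992856-79993155 on the plus strand, Hells is chr19:38930740-38931039 on the plus strand and Ezh1 is chr11:101226414-101226713 on the minus strand.
Ezh2: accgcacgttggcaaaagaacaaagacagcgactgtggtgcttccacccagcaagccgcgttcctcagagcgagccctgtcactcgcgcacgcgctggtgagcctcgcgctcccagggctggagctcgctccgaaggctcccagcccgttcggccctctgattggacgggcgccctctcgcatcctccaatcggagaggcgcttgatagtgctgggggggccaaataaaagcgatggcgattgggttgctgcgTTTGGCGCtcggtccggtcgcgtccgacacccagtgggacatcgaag
Suz12: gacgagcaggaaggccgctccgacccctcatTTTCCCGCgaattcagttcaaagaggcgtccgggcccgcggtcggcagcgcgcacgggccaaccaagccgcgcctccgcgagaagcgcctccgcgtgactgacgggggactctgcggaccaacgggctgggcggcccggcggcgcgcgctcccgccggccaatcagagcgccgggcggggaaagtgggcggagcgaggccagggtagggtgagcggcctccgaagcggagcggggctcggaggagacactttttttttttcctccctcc
Hells: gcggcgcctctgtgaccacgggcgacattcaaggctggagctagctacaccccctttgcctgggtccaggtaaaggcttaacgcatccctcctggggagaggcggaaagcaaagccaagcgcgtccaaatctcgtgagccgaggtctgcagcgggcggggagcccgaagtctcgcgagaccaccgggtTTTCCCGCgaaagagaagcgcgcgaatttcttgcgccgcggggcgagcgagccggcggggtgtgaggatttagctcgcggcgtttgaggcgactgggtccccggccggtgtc
Ezh1: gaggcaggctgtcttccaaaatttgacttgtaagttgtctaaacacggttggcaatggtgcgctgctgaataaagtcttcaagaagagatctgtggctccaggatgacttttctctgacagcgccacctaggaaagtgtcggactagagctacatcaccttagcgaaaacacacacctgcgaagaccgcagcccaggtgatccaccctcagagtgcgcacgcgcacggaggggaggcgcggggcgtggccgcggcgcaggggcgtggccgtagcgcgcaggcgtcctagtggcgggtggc

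Of the 43 genes 36 had a promoter in the RefSeq table. The letters TTTCCCGC, TTTCGCGC, TTTGCCGC and TTTGGCGC were searched on both strands, and 3 of the 36 promoters (8.33%), those of Ezh2, Suz12 and Hells, held one. One was found in 744 (2.265%) of all 32851 promoters listed. The letters CCAAT were also searched on both strands and overlapped none of these 3 matches. They lay in 14 of the 36 (38.9%) and in 12289 of all promoters (37.4%). Promoters of the chromatin regulators were CpG-rich, with a median of 29.5 CpGs, against 7 over all promoters. A match describes these letters in this window only.

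RNA libraries held between 10149390 and 36486072 counts, which sets their precision, and levels are given as CPM, the count of a gene per unit of the scaled library total. Replicates were close in RPCs (Pearson correlation of log2 CPM across genes 0.991 to 0.993), in NMDA Müller cells (0.960 to 0.989) and in aged Müller cells (0.987), and less close in the 2 young libraries (0.866). The young libraries had counts in 13913 and 14919 genes, against 20920 to 23618 in the others, and differed by more than 2-fold for 8 chromatin regulators (Bmi1, Phc2, Hdac9, Chd7, Suv39h1, Suv39h2, Mbd2 and Mbd3), where no other group had such a gene. The 14 Müller glia markers, with all 14 detected in each group, summed to 2248 to 2342 CPM in RPCs, 21814 to 29338 CPM in NMDA cells, 62980 to 63469 CPM in aged cells and 57532 to 68543 CPM in young cells. The 10 progenitor markers summed to 5570 to 6109 CPM in RPCs, 1380 to 2119 CPM in NMDA cells, 2649 to 2773 CPM in aged cells and 2198 to 2366 CPM in young cells. Photoreceptor markers summed to 3.91 to 7.79 CPM in RPCs and to 5897 to 13383 CPM in the Müller groups. The level of Xist, which is made from the inactive X of females, split the libraries within 2 groups (5.46, 2263 and 2109 CPM in NMDA cells, 2699 and 0.477 CPM in young cells). It also differed between groups, with 815, 1554 and 2519 CPM in RPCs and 0.767 and 0.0336 CPM in aged cells. This touches the X-linked members Rbbp7 and Suv39h1. In these bulk samples fewer cells of a type and less RNA per cell cannot be told apart.

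A second pattern crossed the groups. All NMDA and aged libraries lay above all RPC and young libraries for 2287 of 18931 genes (12.1%), and this share was 32.6% (1227 of 3764) among genes with another annotated gene inside their span, against 6.48% (806 of 12430) among genes with none. Among the chromatin regulators 5 of 43 (11.6%) had it, namely Chd4, Chd7, Smarca2, Hdac9 and Phc2, and these are 5 of the 6 members that hold an annotated gene (Ep300 is the other). Counts are therefore given with and without those 6 genes. Comparisons of RPCs with young cells and of NMDA with aged cells lie within one side of this pattern. Whether it bears equally on both groups of a side was not tested, nor was its part in any comparison.

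**Figure D1:**
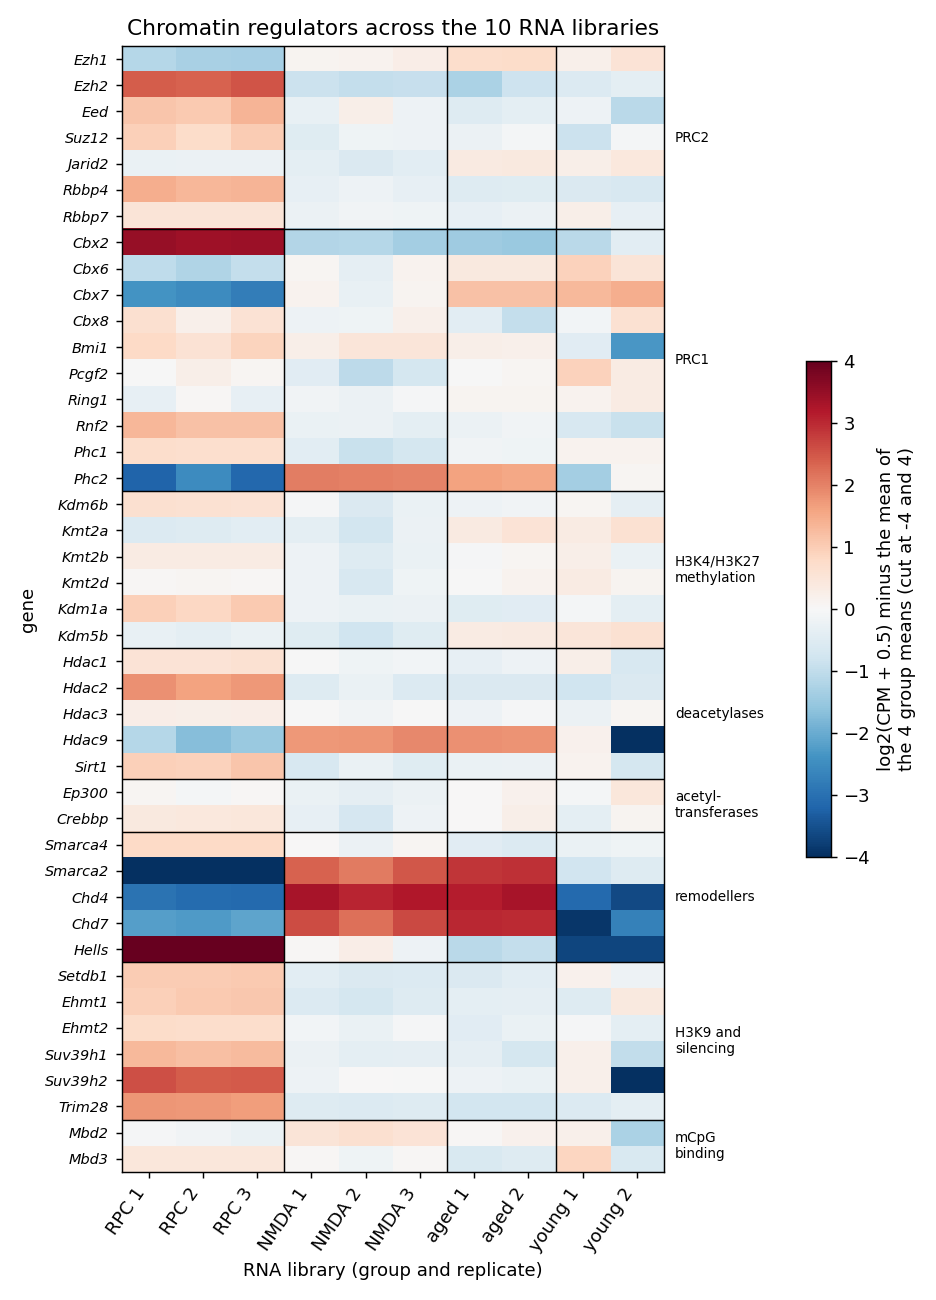
Log2(CPM + 0.5) of each of the 43 chromatin regulators (rows, grouped by role) in the 10 RNA libraries (columns, RPC, NMDA, aged and young), less the mean of the 4 group means of that row and with colours ending at -4 and 4. Most rows are highest in the 3 RPC libraries, and Chd4, Chd7, Smarca2, Hdac9 and Phc2 are high in NMDA and aged libraries and low in RPC and young ones.

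RPCs differed from every Müller group in most of the chromatin regulators. Against young cells 25 of 43 were higher in RPCs and 10 lower at an adjusted p under 0.05 by edgeR's quasi-likelihood test with Benjamini-Hochberg adjustment over all genes, which is 81.4% of the members, against 60.8% of all genes tested (35.9% higher and 24.9% lower). Against aged cells 23 were higher and 11 lower, 79.1% of the members against 55.4% of all genes (26.3% higher and 29% lower). Against NMDA cells 26 were higher and 8 lower, 79.1% against 57.7% (25.8% higher and 31.9% lower). The median log2 change of the members was 0.56 against young, 0.81 against aged and 0.70 against NMDA cells, where all genes had 0.30, 0.02 and -0.08. Without the 6 members that hold another gene the counts were 24 higher and 8 lower, 23 higher and 6 lower, and 26 higher and 3 lower among 37. The 3 comparisons share the RPC libraries and are not independent. The 15 proliferation genes were all higher in RPCs in each comparison, with summed levels of 4430 to 4652 CPM in RPCs, 141 to 234 CPM in NMDA, 82.8 to 93.0 CPM in aged and 110 to 139 CPM in young cells, and the part of cycling in the members' levels was not tested.

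The PRC2 genes were higher in progenitors, with Ezh1 and Jarid2 as the exceptions. Ezh2, the main H3K27 methyltransferase of the complex, had 256, 246 and 271 CPM in RPCs, 25.9, 24.2 and 24.9 CPM in NMDA cells, 19.3 and 26.5 CPM in aged cells and 32.0 and 36.2 CPM in young cells. The RPC libraries stood apart from all 7 Müller libraries. The log2 change was 2.92 ± 0.15 against young (SE; adjusted p = 9.67e-07, edgeR), 3.49 ± 0.16 against aged (adjusted p = 3.23e-07) and 3.37 ± 0.13 against NMDA cells (adjusted p = 1.7e-07).

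Ezh1, the paralog with weaker methyltransferase activity, ran the other way. It had 30.2, 27.2 and 26.4 CPM in RPCs, 73.5, 74.0 and 81.3 CPM in NMDA cells, 109 and 112 CPM in aged cells and 78.6 and 99.8 CPM in young cells. All RPC libraries lay below all Müller libraries, and the NMDA and young libraries overlapped. Ezh1 changed by -1.67 ± 0.13 on the log2 scale against young (adjusted p = 7.91e-06), by -1.99 ± 0.13 against aged (adjusted p = 2.3e-06) and by -1.45 ± 0.12 against NMDA cells (adjusted p = 9.9e-06, edgeR).

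Eed, which binds the finished H3K27 mark and stimulates the enzyme, had 55.3, 52.1 and 65.4 CPM in RPCs, 20.3, 29.6 and 21.7 CPM in NMDA, 17.6 and 19.2 CPM in aged and 22.0 and 11.6 CPM in young cells. Suz12, the scaffold of the complex, had 179, 153 and 185 CPM in RPCs, 65.4, 81.8 and 80.1 CPM in NMDA, 78.2 and 88.0 CPM in aged and 50.9 and 86.8 CPM in young cells. For both genes every RPC library was above every Müller library, while the Müller groups overlapped in most pairs. Against young cells Eed rose by 1.77 ± 0.30 on the log2 scale (adjusted p = 0.000911, edgeR) and Suz12 by 1.33 ± 0.22 (adjusted p = 0.000912). Rbbp4, a histone-binding subunit shared with other complexes, had 508, 462 and 472 CPM in RPCs and between 119 and 159 CPM in all Müller libraries, and its log2 change against young was 1.98 ± 0.09. Rbbp7, its X-linked paralog, rose less, by 0.54 ± 0.15 against young cells.

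Jarid2 guides PRC2 to its targets. It had 95.3, 97.9 and 96.9 CPM in RPCs, 87.8, 76.1 and 86.2 CPM in NMDA cells, 146 and 151 CPM in aged cells and 134 and 154 CPM in young cells. The RPC and NMDA libraries were low and the aged and young ones high, with no overlap between these pairs of groups. Jarid2 fell in RPCs by 0.58 on the log2 scale against young (SE 0.10, adjusted p = 0.00109, edgeR) and by 0.62 against aged cells (SE 0.10, adjusted p = 0.000731), and its change against NMDA cells was 0.21 ± 0.09 (adjusted p = 0.0702).

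**Figure D2:**
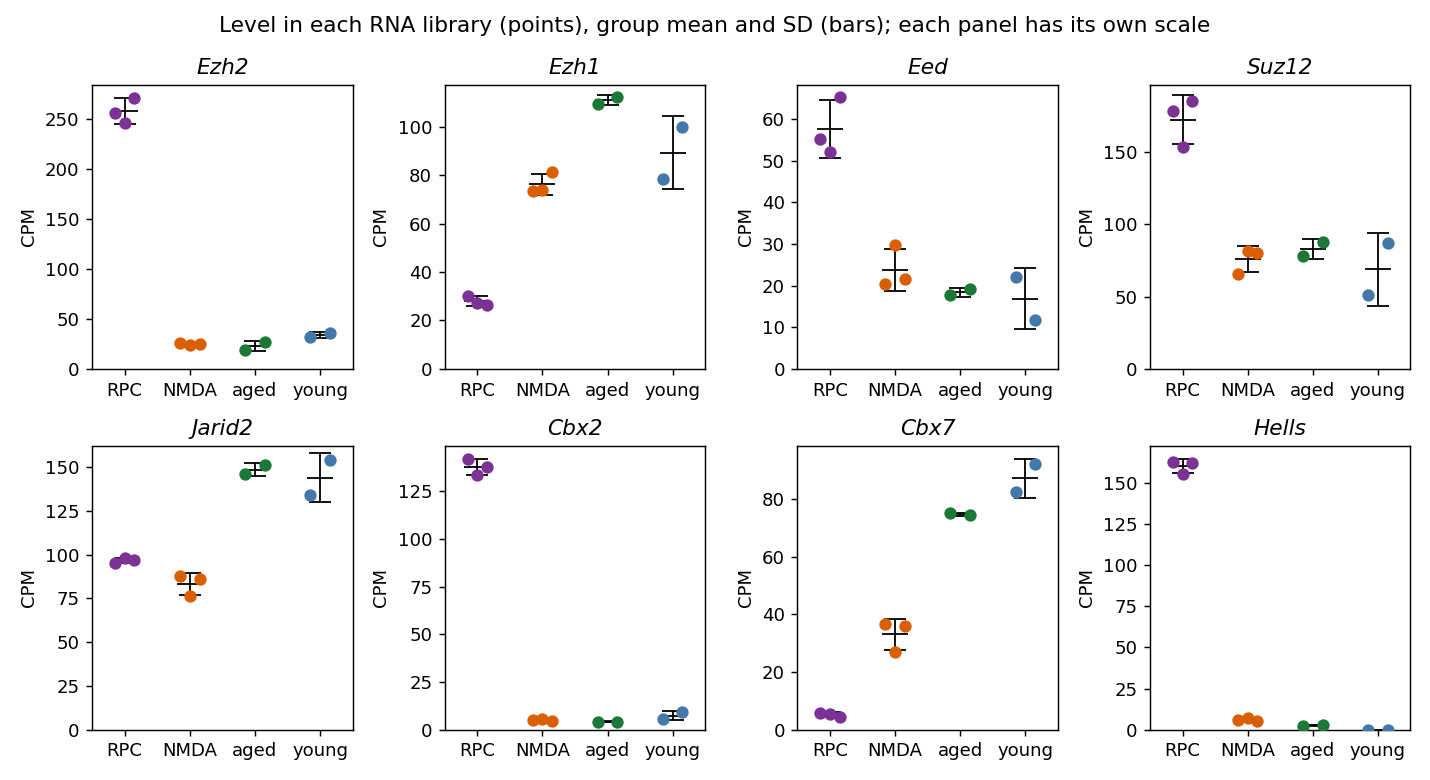
CPM in each RNA library (points) with the group mean and SD (black bars) for Ezh2, Ezh1, Eed, Suz12, Jarid2, Cbx2, Cbx7 and Hells, on linear axes that differ between panels, with groups from left to right RPC, NMDA, aged and young. Ezh2 and Ezh1 show opposite orders, with Ezh2 at 246 to 271 CPM in RPCs and Ezh1 at 26.4 to 30.2 CPM there.

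Among the Cbx readers of PRC1, Cbx2 was higher in RPCs and Cbx7 and Cbx6 were lower. Cbx2, the reader that compacts chromatin, had 142, 134 and 138 CPM in RPCs, 5.20, 5.34 and 4.50 CPM in NMDA, 4.26 and 4.10 CPM in aged and 5.61 and 9.16 CPM in young cells. Cbx7, a reader known for repressing the Cdkn2a locus, had 5.89, 5.35 and 4.45 CPM in RPCs, 36.6, 26.9 and 35.8 CPM in NMDA, 75.0 and 74.3 CPM in aged and 82.4 and 92.0 CPM in young cells. Both genes separated the RPC libraries from all others, in opposite directions. Against young cells Cbx2 changed by 4.23 ± 0.23 (adjusted p = 1.07e-06) and Cbx7 by -4.05 ± 0.19 (adjusted p = 4.79e-07, edgeR).

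Cbx6, another reader, had 106, 93.2 and 110.1 CPM in RPCs, 226, 166 and 236 CPM in NMDA, 278 and 281 CPM in aged and 408 and 306 CPM in young cells, and was -1.79 ± 0.17 in RPCs against young cells on the log2 scale. Cbx8 passed only against aged cells, by 1.19, a call lost without aged replicate 2 or without RPC replicate 1 or 3. Rnf2, the main H2A ubiquitin ligase, was higher in RPCs, with 153, 139.6 and 139 CPM, against 47.2 to 52.5 CPM in NMDA, 52.3 and 55.7 CPM in aged and 39.4 and 33.2 CPM in young cells (log2 change against young 1.99 ± 0.12, adjusted p = 2.18e-06, edgeR). Its paralog Ring1 had 22.0 to 28.5 CPM in RPCs and 23.5 to 35.2 CPM over the Müller libraries. Its call as lower in RPCs than in young cells (-0.44) was lost in 11 settings and that of Pcgf2 (-0.55) in 10, with every RPC library among those whose removal ended it. Phc1, which joins PRC1 units into larger assemblies, had 106 CPM in each of the 3 RPC libraries, against 34.8 to 48.4 CPM in NMDA, 60.0 and 58.6 CPM in aged and 72.0 and 72.4 CPM in young cells, so that no groups overlapped. Over the 10 PRC1 genes 4 were higher and 5 lower in RPCs against young cells and 4 were higher and 3 lower in both other comparisons. Of all genes tested 35.9% were higher and 24.9% lower against young cells. The shares were 26.3% and 29% against aged cells and 25.8% and 31.9% against NMDA cells.

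Paralog pairs were also compared as log2 ratios of CPM within each library (0.5 CPM added), where only the difference between groups can be read because gene lengths differ. The Ezh2 to Ezh1 ratio was 3.19 ± 0.14 in RPCs, -1.59 ± 0.10 in NMDA, -2.27 ± 0.29 in aged and -1.37 ± 0.12 in young cells (mean ± SD). The difference was 4.55 between RPC and young, 5.45 between RPC and aged and 4.77 between RPC and NMDA cells. The Cbx2 to Cbx7 ratio was 4.60 ± 0.18 in RPCs, -2.60 ± 0.33 in NMDA, -4.01 ± 0.03 in aged and -3.51 ± 0.36 in young cells. These pairs did not overlap between RPCs and any Müller group, and each exact two-sided permutation test gave p = 0.1, the smallest that 3 against 2 or 3 against 3 libraries allow (0.15 after adjustment over 30 comparisons). The Hdac2 to Hdac1 ratio was 1.34 ± 0.11 in RPCs, -0.16 ± 0.22 in NMDA, -0.11 ± 0.10 in aged and -0.29 ± 0.78 in young cells.

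Writers and erasers of H3K4 and H3K27 methylation moved in both directions. Kmt2a, an H3K4 methyltransferase, had 449, 459 and 488 CPM in RPCs, 500.1, 392 and 546 CPM in NMDA, 840.1 and 945 CPM in aged and 823 and 989.6 CPM in young cells. Kdm5b, which removes H3K4 methylation, had 351, 331 and 355 CPM in RPCs, 307, 245 and 310.3 CPM in NMDA, 535 and 557 CPM in aged and 608 and 663 CPM in young cells. Both were lower in RPC and in NMDA libraries than in any aged or young library. In RPCs against young cells Kmt2a fell by 0.96 on the log2 scale (adjusted p = 0.000634, edgeR) and Kdm5b by 0.88 (adjusted p = 0.000248). Kdm1a, the LSD1 demethylase, had 145 to 168 CPM in RPCs and 58.7 to 78.0 CPM over the Müller libraries, and rose by 1.17 ± 0.12 against young. Kdm6b, an H3K27 demethylase, had 158 to 163 CPM in RPCs and 69.5 to 112 CPM over the Müller libraries, and rose by 0.73 ± 0.17 against young. Kmt2b and Kmt2d, also H3K4 methyltransferases, passed only against NMDA cells, by 0.64 ± 0.14 and 0.38 ± 0.13, the call of Kmt2d being lost in 7 settings.

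Among the enzymes of histone acetylation the class I deacetylase Hdac2 set RPCs apart. It had 244, 209.9 and 232 CPM in RPCs, 48.2, 57.5 and 47.1 CPM in NMDA, 46.2 and 45.7 CPM in aged and 39.1 and 46.0 CPM in young cells, so that the RPC libraries were apart and the log2 change against young was 2.43 ± 0.14 (adjusted p = 1.44e-06, edgeR). Hdac1, Hdac3 and the NAD-dependent deacetylase Sirt1 also passed as higher in RPCs in each comparison, with log2 changes of 0.72, 0.33 and 1.21 against young. The call of Hdac3 was lost in 8 settings against young, in 4 against aged and in 7 against NMDA cells, among them without RPC replicate 1 or 3 in each comparison. That of Hdac1 was lost without RPC replicate 3 or with the 2 groups alone against young, without aged replicate 1 against aged and without NMDA replicate 2 or 3 against NMDA cells. Hdac9, a class IIa deacetylase that holds annotated genes within its span, had 4.50, 2.91 and 3.44 CPM in RPCs, 36.1, 36.9 and 41.6 CPM in NMDA, 38.6 and 37.9 CPM in aged and 11.9 and 0 CPM in young cells. It was lower in RPCs than in NMDA cells (-3.40 ± 1.00, adjusted p = 0.0177), a call lost when any 1 of the RPC libraries was left out, and the young libraries lay on either side of the RPC values. The acetyltransferase Crebbp had 381 to 396 CPM in RPCs and 183 to 337 CPM over the Müller libraries, and passed against young (0.56, lost without young replicate 1 or RPC replicate 3) and NMDA cells (0.81). Its paralog Ep300 passed in no comparison of RPCs.

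The enzymes of H3K9 methylation and their partners were higher in RPCs, 6 of 6 against young, 5 of 6 against aged and 6 of 6 against NMDA cells. Over all genes tested the shares higher in RPCs were 35.9%, 26.3% and 25.8%. Trim28, the corepressor that brings Setdb1 to retroelements, had 813, 804 and 764 CPM in RPCs, 168, 164 and 167 CPM in NMDA, 145 and 144 CPM in aged and 164 and 182 CPM in young cells. The RPC libraries were all several-fold above the Müller ones, with a log2 change of 2.20 ± 0.09 against young (adjusted p = 3.25e-07), 2.46 ± 0.09 against aged and 2.26 ± 0.08 against NMDA cells (edgeR). Setdb1, the H3K9 methyltransferase of that complex, had 203, 205 and 209 CPM in RPCs, 74.5, 67.9 and 68.1 CPM in NMDA, 67.2 and 75.3 CPM in aged and 114 and 87.9 CPM in young cells.

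Ehmt1 and Ehmt2, which form the G9a-GLP pair of H3K9 methyltransferases, rose by 1.03 ± 0.23 and 0.92 ± 0.12 against young cells. Suv39h2, a heterochromatin H3K9 methyltransferase, had 70.3, 63.2 and 64.1 CPM in RPCs, 9.74, 11.4 and 11.3 CPM in NMDA, 9.69 and 9.27 CPM in aged and 13.2 and 0 CPM in young cells. All RPC libraries were above the rest, and the young pair was far apart. The log2 change was 3.28 ± 1.13 against young (adjusted p = 0.0325), 2.80 ± 1.09 against aged (adjusted p = 0.0563) and 2.61 ± 0.93 against NMDA cells (adjusted p = 0.0381, edgeR). The calls against young and NMDA cells were each lost in 9 alternative settings, among them leaving out any RPC or aged library. Its X-linked paralog Suv39h1 had 104 to 111 CPM in RPCs and 22.9 to 51.8 CPM over the Müller libraries.

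Nucleosome remodellers held the widest range. Hells, a remodeller that works with DNA methylation at repeats, had 163, 155 and 162 CPM in RPCs, 6.06, 7.13 and 5.03 CPM in NMDA, 2.52 and 2.82 CPM in aged and no count in either young library. No 2 groups overlapped. Hells was 5.91 ± 0.21 higher in RPCs than in aged cells on the log2 scale (adjusted p = 2.65e-07) and 4.72 ± 0.16 higher than in NMDA cells (adjusted p = 2.46e-07, edgeR). Against a floor of 3 counts over the pooled young libraries (0.116 CPM) it was at least 1381-fold higher in RPCs, at least 52.3-fold higher in NMDA cells and at least 22.9-fold higher in aged cells, from 6626, 297 and 166 pooled counts. These bounds cover counting error only. They leave out the spread between the young libraries, which had 13.2 and 0 CPM for Suv39h2 and 11.9 and 0 CPM for Hdac9.

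Smarca4, an ATPase of SWI/SNF complexes, had 538, 534 and 533 CPM in RPCs, 311, 264 and 329 CPM in NMDA, 225 and 210.3 CPM in aged and 256 and 273 CPM in young cells, a log2 change of 1.02 ± 0.11 in RPCs against young (adjusted p = 6.96e-05, edgeR). Its paralog Smarca2 had 1.01, 1.10 and 0.859 CPM in RPCs, 177, 147 and 194 CPM in NMDA, 252 and 262 CPM in aged and 19.9 and 23.8 CPM in young cells. Smarca2 was lowest in RPCs against every group, by -4.45 ± 0.18 against young cells, the comparison that lies within one side of the pattern described above.

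Chd4, the ATPase of the NuRD complex, had 8.04, 7.24 and 7.03 CPM in RPCs, 641, 543 and 605 CPM in NMDA, 583 and 648 CPM in aged and 7.11 and 4.86 CPM in young cells. Chd7, a remodeller required in neural progenitors, had 12.7, 12.3 and 13.7 CPM in RPCs, 374, 281 and 382 CPM in NMDA, 490.4 and 481 CPM in aged and 3.65 and 8.78 CPM in young cells. For Phc2, a PRC1 subunit, the values were 2.41, 4.25 and 2.58 CPM in RPCs, 112, 108 and 107 CPM in NMDA, 81.9 and 78.6 CPM in aged and 10.1 and 27.8 CPM in young cells. The lowest NMDA or aged library was 67.6-fold above the highest RPC or young one for Chd4, 20.4-fold for Chd7, 6.15-fold for Smarca2, 3.03-fold for Hdac9 and 2.83-fold for Phc2. All 5 hold an annotated gene within their span, and its part in these differences was not tested. Within one side, Chd4 did not pass between RPC and young cells (0.30 ± 0.17, adjusted p = 0.161, edgeR) and Chd7 was 1.09 ± 0.31 higher in RPCs (adjusted p = 0.0147).

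Of the methyl-CpG binding proteins, Mbd2 had 39.5 to 45.7 CPM in RPCs, 68.0 to 73.4 CPM in NMDA, 49.0 and 53.0 CPM in aged and 54.1 and 19.5 CPM in young cells, and passed in no comparison. Mbd3, a NuRD subunit that binds methylated DNA weakly, had 99.9 to 100.2 CPM in RPCs, 64.2 to 75.3 CPM in NMDA, 47.5 and 51.4 CPM in aged and 134 and 48.1 CPM in young cells, and passed only against aged cells (1.02), a call lost without any 1 of the RPC or aged libraries.

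**Figure D3:**
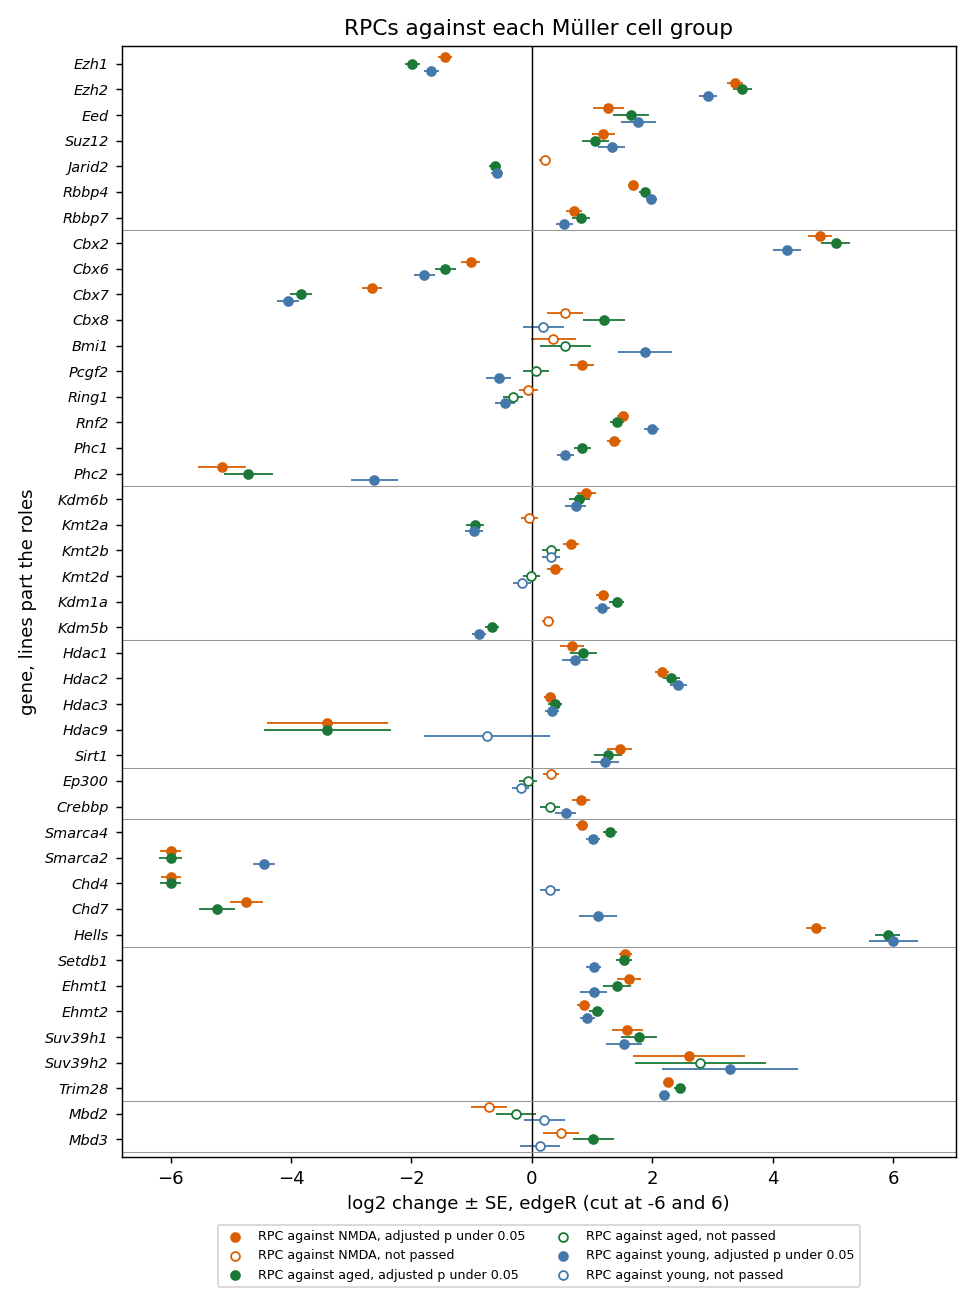
Log2 change with SE of each member in RPCs against NMDA, aged and young Müller cells, grouped by role, with filled points for an adjusted p under 0.05 and values beyond -6 or 6 drawn at that edge. Cbx2, Ezh2, Hdac2 and Trim28 lie on the high side in all 3 comparisons and Cbx7, Cbx6, Ezh1 and Smarca2 on the low side, and the fitted value of Hells against young is not a bound because no young library held a count.

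After NMDA the Polycomb genes changed in both directions against young cells, with 3 of 10 PRC1 genes higher and 4 lower and 1 of 7 PRC2 genes higher and 2 lower, and 3 of 6 genes of H3K4 and H3K27 methylation were lower and none higher. Against aged cells 3 PRC1, 2 PRC2 and 2 H3K4 and H3K27 genes were lower and none of these lists had a higher one. Against young cells 8 members were higher and 11 lower, 44.2% of the members against 44.9% of all genes (30.6% higher and 14.3% lower), a share near the background. Of the members 18.6% were higher and 25.6% lower, and the median log2 change was -0.16 for the members and 0.26 for all genes. Of the 37 members that hold no other gene 4 were higher and 10 lower. With upper-quartile scaling the median of all genes was 0.04 and the split of the members was 6 higher and 17 lower. Against aged cells 2 members were higher and 8 lower, 23.3% against 20.3% of all genes (10.5% higher and 9.8% lower), with medians of -0.02 and 0.04. These comparisons share the NMDA libraries. Against young cells 15 members were higher and 15 lower when young replicate 1 was left out. Against aged cells 5 were higher and 14 lower without either young library, which enter the estimate of spread only, and 1 higher and 4 lower without aged replicate 1 or 1 higher and 3 lower without aged replicate 2.

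Cbx7, whose values are given above, was lower after NMDA than in every aged and young library, by -1.40 ± 0.17 on the log2 scale against young (adjusted p = 0.000374) and -1.17 ± 0.17 against aged cells (adjusted p = 0.0024, edgeR). Jarid2 was likewise lower, by -0.79 ± 0.10 against young (adjusted p = 0.000443) and -0.83 ± 0.10 against aged cells (adjusted p = 0.000938). Kdm5b changed by -1.14 ± 0.12 against young (adjusted p = 0.000157) and -0.93 ± 0.12 against aged cells (adjusted p = 0.00129). Kmt2a changed by -0.92 ± 0.15 against young (adjusted p = 0.00169) and -0.90 ± 0.15 against aged cells (adjusted p = 0.00467), where the call against aged cells was lost without aged replicate 2. For these 4 genes the NMDA libraries lay below all 4 untreated glial libraries.

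Pcgf2, a PRC1 subunit that partners Rnf2, had 61.3, 72.0 and 64.3 CPM in RPCs, 44.7, 29.2 and 37.1 CPM in NMDA, 60.7 and 64.8 CPM in aged and 116 and 77.2 CPM in young cells. It fell by 1.38 after NMDA against young (SE 0.21, adjusted p = 0.00116, edgeR), and its call against aged cells (-0.76 ± 0.21, adjusted p = 0.0354) was lost in 8 settings, including without either aged library, NMDA replicate 2 or 3 or any 1 of the RPC libraries. Phc1 changed by -0.81 ± 0.13 against young and -0.53 ± 0.13 against aged cells, the second call being lost without either aged library, NMDA replicate 3 or RPC replicate 3. Ezh1 changed by -0.54 ± 0.13 against aged cells (adjusted p = 0.0181), a call lost without either aged library or NMDA replicate 1 or 2, and did not pass against young.

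Ezh2 showed -0.45 ± 0.14 after NMDA against young (adjusted p = 0.0286, edgeR), a call lost in 7 settings, among them without young replicate 2 and without any 1 of the NMDA libraries, and 0.13 ± 0.14 against aged cells (adjusted p = 0.582). Suz12, Eed and Rbbp7 passed in neither comparison. Rbbp4 changed by 0.31 against young (adjusted p = 0.0201), a call lost with upper-quartile scaling, the 2 groups alone or the replicate number as a block.

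The PRC1 genes higher after NMDA against young were Bmi1, Rnf2 and Phc2. Bmi1, a partner of the ubiquitin ligase, had 57.2, 68.8 and 68.8 CPM in NMDA and 35.5 and 9.25 CPM in young cells, a log2 change of 1.53 ± 0.44 (adjusted p = 0.0218, edgeR) that lost its call without NMDA replicate 2 or 3 and with the 2 groups alone. Rnf2 changed by 0.47 ± 0.11 (adjusted p = 0.0101), a call lost with upper-quartile scaling and with the 2 groups alone. Phc2, which follows the divide between NMDA or aged and RPC or young libraries, changed by 2.53 ± 0.40 (adjusted p = 0.00141). None of these 3 passed against aged cells. Hells was 1.19 ± 0.17 higher after NMDA than in aged cells (adjusted p = 0.0035, edgeR). Smarca4 was 0.47 ± 0.11 higher than in aged cells (adjusted p = 0.0176), a call lost without either aged library. None of the 5 deacetylases passed in either comparison, and Hdac9 at 2.65 ± 1.13 against young had an adjusted p of 0.0871.

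Marker levels moved with these comparisons. Microglia and macrophage markers, 16 genes, summed to 505 to 4956 CPM in NMDA, 177 to 197 CPM in aged and 30.4 to 154 CPM in young cells, with 12 higher against young and 7 higher against aged, and Aif1, Trem2 and Ptprc at 0 in young cells. The Müller glia markers summed to less after NMDA than in both untreated groups, as given above, and 7 of 14 were lower against young and 9 of 14 against aged cells. Vascular markers summed to 3043 to 4351 CPM in NMDA, 4502 to 4520 CPM in aged and 3578 to 3852 CPM in young cells, with 5 of 8 higher and 1 lower against young, 2 lower against aged, and Pecam1, Cldn5, Cdh5, Rgs5 and Acta2 at 0 in young cells. Proliferation genes were higher in 9 of 15 against young and 11 of 15 against aged cells. The part of these marker differences in the members' changes was not tested.

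**Figure D4:**
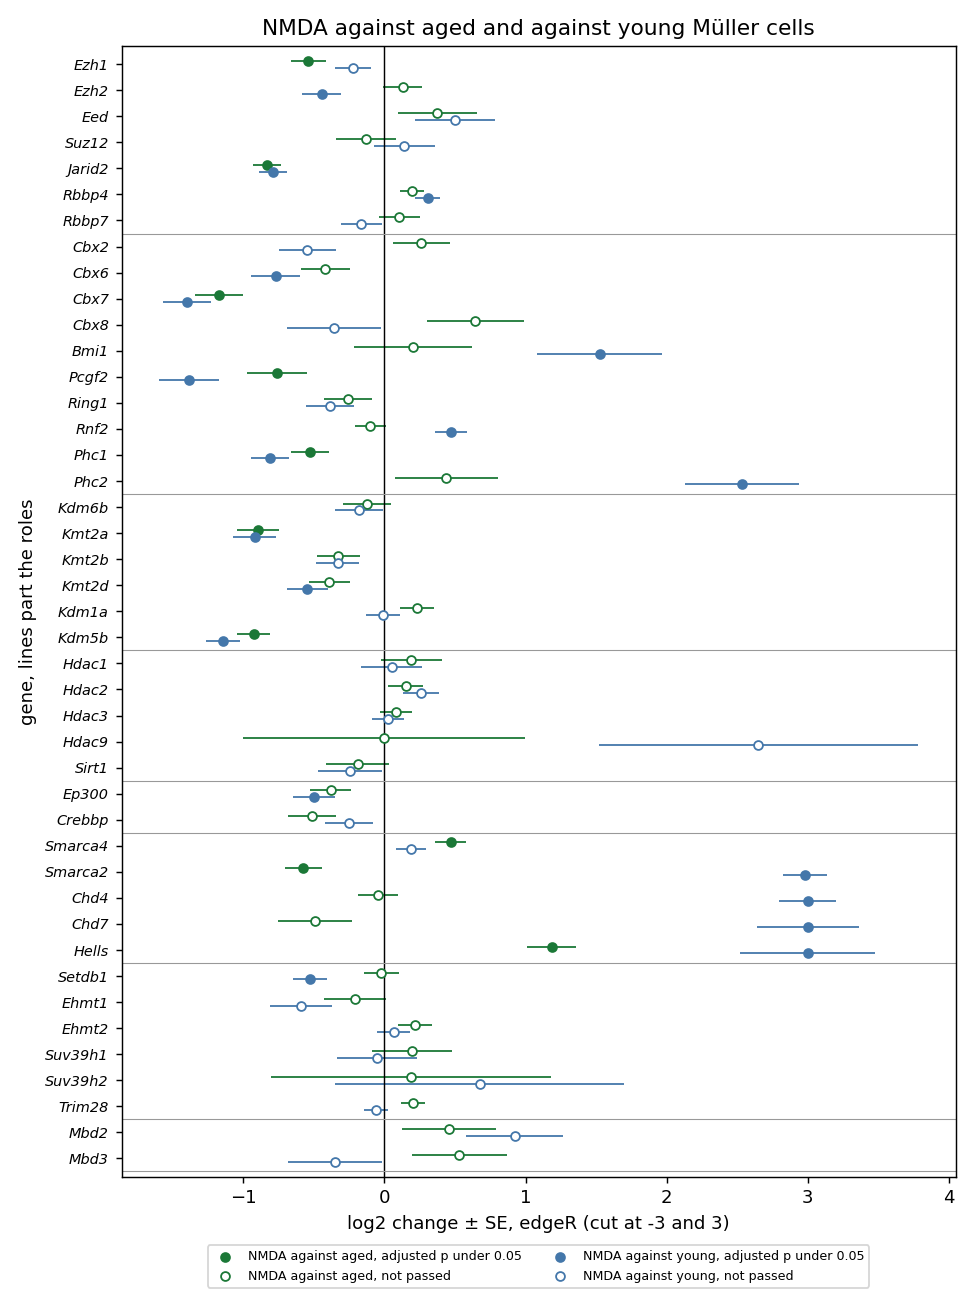
Log2 change with SE of each member in NMDA-treated Müller cells against young and against aged Müller cells, with filled points for an adjusted p under 0.05 and values beyond -3 or 3 drawn at that edge. Cbx7, Kdm5b, Kmt2a, Jarid2, Pcgf2 and Phc1 lie below 0 in both, while Chd4, Chd7, Smarca2, Hdac9 and Phc2 lie far above 0 against young and between -0.57 and 0.44 against aged cells.

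Aged and young Müller cells differed in few chromatin regulators. Of the 43, 6 were higher and 3 lower in aged cells, 20.9% of the members against 27% of all genes (21.1% higher and 5.85% lower), with median log2 changes of -0.06 and 0.13. Without the 6 members that hold another gene 2 were higher, Hells and Rnf2, and 3 lower, among 37. With upper-quartile scaling, where the median of all genes was near 0, 6 were higher and 8 lower. Without young replicate 1 the counts were 12 higher and 6 lower and without young replicate 2 they were 11 and 11. Rnf2 changed by 0.57 ± 0.12 (adjusted p = 0.0102, edgeR), a call lost without aged replicate 2 or with the 2 groups alone. Cbx2 was lower in aged cells by -0.81 ± 0.22 (adjusted p = 0.0254), Ezh2 by -0.57 ± 0.15 (adjusted p = 0.0238) and Setdb1 by -0.51 ± 0.13 (adjusted p = 0.0237). Between aged and young cells 5 of 8 vascular, 3 of 16 microglia and macrophage, and 4 of 10 progenitor markers were higher in aged cells and 1 progenitor marker was lower. Their part in the members' changes was not tested. The aged and young libraries of Cbx2, Ezh2 and Setdb1 did not overlap, but leaving out aged replicate 1 ended each call, as did leaving out aged replicate 2 for Cbx2 and Setdb1, young replicate 1 for Setdb1, and RPC replicate 1 or 3 for Cbx2.

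DNA methylation was read at the same genes. RRBS libraries listed 1338829 to 2532174 cytosine positions with at least 10 reads, of which 759352 were in all 12 libraries, 743808 of them on autosomes, and the median coverage of shared positions was 52 to 109 reads. The 2 strands of a CpG are listed as separate positions and are not independent. Of the 43 genes 34 had at least 5 autosomal positions within 1000 bases of the start site or, for 7 genes with no promoter entry, of the gene end with more positions. Taken over the 12 libraries together, their windows had little methylation, with a median of 1.44% and all 34 under 10%. Over 10751 gene windows the median was 1.64% and 91.6% were under 10%. By group the Setdb1 window was above 10% in RPCs (mean 10.67%) and NMDA cells (11.03%), but not in aged (7.12%) or young cells (8.28%). The Ezh2 window had 0.731% in RPCs, 0.468% in NMDA, 0.292% in aged and 2.14% in young cells.

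No member window was called between RPC and young cells (adjusted p under 0.05 and at least 5 percentage points in a quasi-binomial model, where 5.99% of all windows were called, 2.97% higher and 3.02% lower). Between NMDA and young cells 1 was called, Chd4, lower after NMDA (4.7% of all windows called, 2.03% lower). Between aged and young cells Chd4 and Kmt2d were called, both lower in aged cells (5.48% of all windows called, 4.78% lower). The Chd4 window held 0.613% ± 0.550 in NMDA, 0.667% ± 0.660 in aged and 6.33% ± 2.74 in young cells (SD, n = 3 each), from 10 positions. Without RPC replicate 2 the count between RPC and young cells was 1, without NMDA replicate 2 or 3 or young replicate 3 that between NMDA and young cells was 2, and that between aged and young cells was 1 without young replicate 2 and 4 without young replicate 3. The Kmt2d window held 0.591% ± 0.262 in aged and 6.16% ± 1.26 in young cells. The young libraries were higher across the board, with a median over all windows of at least 3.00% in each, against 0.43 to 0.50% in aged, 0.79 to 0.87% in NMDA and 0.72 to 2.15% in RPC libraries. Aged and NMDA cells were each below young cells in 33 of 34 member windows, with median differences of -2.86 and -2.45 points, where all windows had -2.86 and -2.45 points.

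Most positions called between RPC and young cells lay outside the windows described above. Of 2378 member positions 2239 could be tested, and 146 were called between RPC and young cells (99 higher and 47 lower, adjusted p under 0.05 and at least 10 points), 6.52% against 7.52% of all positions (4.81% higher and 2.71% lower). Of the 146, 130 lay outside the windows. The share of all tested positions that lie outside windows was not computed, so this count has no background. At the Ezh2 gene both called positions, chr6:47583587 and chr6:47583605, lay within the annotated span, at least 11425 bases from the start site. The first was methylated at 88.4% and 87.8% in 2 RPC libraries and in every read of the other, 12.1, 4.76 and 29.6% in NMDA, 1.52, 11.5 and 0.606% in aged and 0% in all 3 young libraries. RPCs were apart from the other groups at this site, with a difference from young cells of 92.1 points (adjusted p = 0.00029, quasi-binomial F test), and the second site differed by 87.2 points.

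Chd7 held the most called positions, 30, all higher in RPCs, between chr4:8725033 and chr4:8855288 within its span, with means at these chosen positions of 62.6% in RPCs, 25.7% in NMDA, 12.2% in aged and 12.4% in young cells. Over all 48 positions of the Chd7 body the libraries had 53.7, 53.0 and 51.4% in RPCs, 21.8, 26.6 and 34.8% in NMDA, 15.7, 17.4 and 13.1% in aged and 19.6, 18.2 and 15.02% in young cells. The RPC libraries were highest and the NMDA libraries lay between them and both untreated groups, without overlap. Body values here and below include the called positions. Their order between RPC and young cells therefore partly follows from the choice of genes. The Cbx8 body ran the other way over its 6 positions, with 19.4, 18.7 and 13.3% in RPCs, 80.4, 78.1 and 80.4% in NMDA, 74.4, 73.9 and 70.1% in aged and 72.3, 72.3 and 64.0% in young cells. Jarid2 had 20 positions called higher in RPCs within chr13:44869800-44870020 (61.4% in RPCs, 40.5% in NMDA, 20.5% in aged and 24.6% in young cells at these chosen positions). Over all 85 positions of its body Jarid2 had 39.3% ± 1.12 in RPCs, 32.5% ± 1.97 in NMDA, 24.1% ± 2.21 in aged and 30.3% ± 5.54 in young cells (SD, n = 3 each), and the NMDA and young libraries overlapped. Cbx6 had 19 called higher and 3 lower. At Kdm6b the position chr11:69407772 had 95.7, 98.8 and 97.8% in RPCs, 72.7, 67.3 and 65.6% in NMDA, 26.8, 29.2 and 6.45% in aged and 0, 7.14 and 8.33% in young cells. At this position the NMDA libraries lay between the RPC libraries and those of aged and young cells. The difference from young was 93.3 points in RPCs and 63.7 points after NMDA. It was the 1 Kdm6b position called higher after NMDA, where 5 were called lower, and in RPCs 3 were higher and 4 lower. Over all 116 positions of the Kdm6b body the order was not seen, with means of 21.4% in RPCs, 19.6% in NMDA, 17.5% in aged and 20.5% in young cells.

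Between NMDA and young cells 72 member positions were called (39 higher and 33 lower), 3.22% against 3.17% of all positions (2.08% higher and 1.09% lower). Cbx6 had 15 of the higher ones, Chd7 had 12 and Mbd2 had 5. Over all 68 positions of the Cbx6 body the libraries had 36.4, 44.1 and 49.8% in NMDA and 18.4, 30.9 and 30.2% in young cells. Over the Chd7 body the mean was 27.7% ± 6.57 in NMDA and 17.6% ± 2.37 in young cells (SD, n = 3 each). Over 16 positions of the Mbd2 body the libraries had 11.6, 18.7 and 37.3% in NMDA and 6.48, 5.35 and 7.07% in young cells. The NMDA libraries were above the young ones at all 3 genes and spread widely at Mbd2. These genes were chosen for their positions called higher after NMDA, and the body values include those positions. The order of NMDA over young cells therefore partly follows from that choice. Without NMDA replicate 1, 2 or 3 the count was 26, 4 or 6. Between aged and young cells 109 were called (8 higher and 101 lower), 4.87% against 4.04% of all positions (0.448% higher and 3.59% lower), with 11 lower at each of Kdm6b and Smarca2, 10 at Pcgf2 and 8 at Jarid2, and 7 higher at Cbx6. Without aged replicate 1, 2 or 3 the count was 59, 71 or 50.

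**Figure D5:**
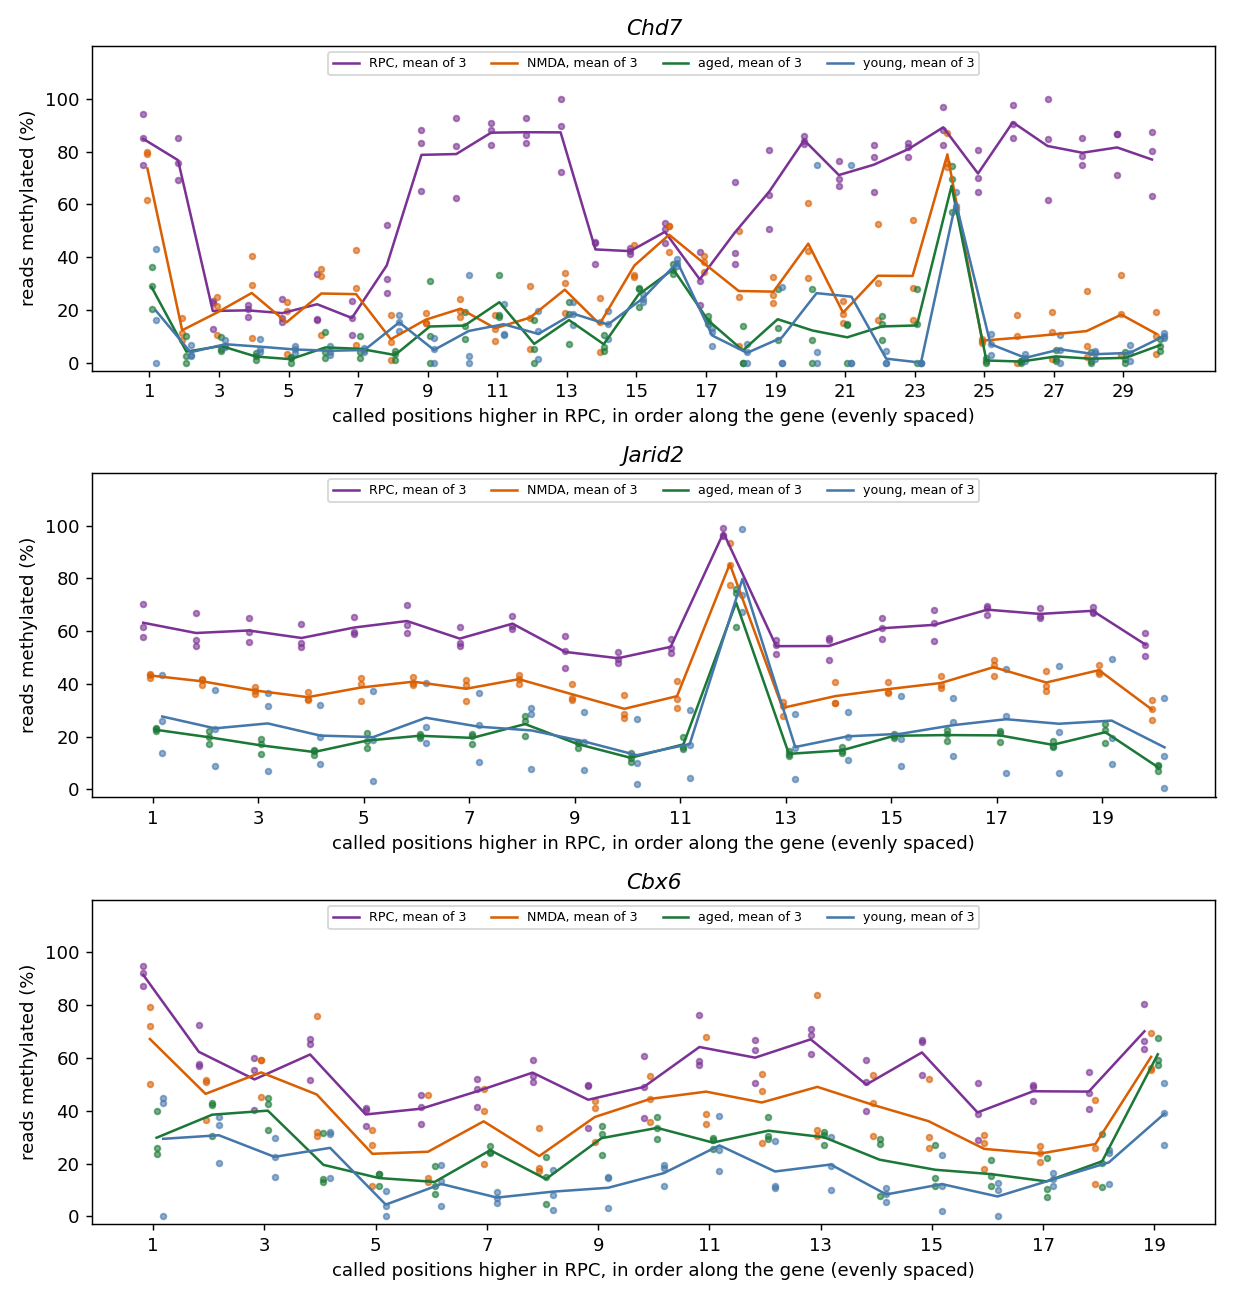
Percent of reads methylated in each of the 12 RRBS libraries (points) with group means (lines) at the positions called higher in RPCs than in young cells within Chd7 (30), Jarid2 (20) and Cbx6 (19), evenly spaced in their order along the gene. The positions were chosen by the difference between RPC and young cells, so the height of RPC over young libraries is fixed by that choice. The means over all positions of each gene body include these chosen positions and are closer. At Cbx6 the highest is that of NMDA cells (37.5% in RPC, 43.4% in NMDA, 34.9% in aged and 26.5% in young cells).

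Other chromatin genes, 107 in 6 lists of related complexes chosen with earlier results in view, changed in both directions. In RPCs 56 were higher and 21 lower against young (77 of 107, where 60.8% of all genes were called), 57 and 28 against aged (85 of 107, 55.4% of all genes), and 59 and 23 against NMDA cells (82 of 107, 57.7% of all genes). The 15 histone chaperones and assembly factors were higher in 13, 15 and 13 cases, with median log2 changes of 3.34, 3.46 and 2.67. In the same order 35.9%, 26.3% and 25.8% of all genes were higher and 24.9%, 29% and 31.9% lower. H2afx, the histone variant of DNA damage signalling, averaged 264 CPM in RPCs, 8.87 CPM in NMDA, 10.7 CPM in aged and 11.1 CPM in young cells. Chaf1a, of the chromatin assembly factor that acts behind replication forks, averaged 144 CPM in RPCs, 12.5 CPM in NMDA, 7.28 CPM in aged and 21.8 CPM in young cells. Among 18 further Polycomb genes 9 were higher and 5 lower in RPCs against young cells, where the PRC2 cofactor Mtf2 rose by 2.12 ± 0.11 on the log2 scale. Between NMDA and aged cells 7 of the 107 were higher and 17 lower, 24 in all, where 20.3% of all genes were called (10.5% higher and 9.8% lower). Among the lower was the H3K4 methyltransferase Kmt2c at -0.81 ± 0.11 (adjusted p = 0.00152, edgeR).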

How the data were processed

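Total RNA and RRBS libraries of mouse retinal cells were analysed from the deposited files. The authors deposited RNA values as raw counts of reads per gene symbol, and neither the counting tool nor its strand setting is given in the sources used here, so reads of overlapping or antisense genes cannot be assigned. Per the file headers, RRBS files give the percent of methylated reads and the coverage at each cytosine position, listed only at 10 or more reads. The submitters' processing notes name Bismark 0.16.3, methylKit 1.4.0, HISAT2 2.0.4 and Trim Galore 0.4.3, and the builds GRCm38 and mm10. Methods of dissociation and sort gates are not used here.

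The 10 RNA libraries were fitted together in edgeR 4.0.16 (R 4.3.3, limma 3.58.1) by quasi-likelihood after TMM scaling and its expression filter, with a biological coefficient of variation of 0.411 in common and 6 residual degrees of freedom. Adjusted p-values are Benjamini-Hochberg over 18931 genes, and a call is an adjusted p under 0.05. CPM use the scaled library totals. The SE of an RNA change is not an output of the test. It was derived as the absolute log2 change divided by the square root of the quasi-likelihood F, and is approximate. Methylated reads were recovered as percent times coverage, and windows and positions were fitted over the 12 libraries by a quasi-binomial model with moderated overdispersion (scipy 1.17.1, pandas 2.3.3 and numpy 2.4.6 in Python 3.11.15). Sex chromosomes were left out. Floors and intervals cover counting error only. Both fits were tested on simulated data. The RNA simulation had less spread and fewer changed genes than these libraries, so it does not cover their conditions.

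Values in every library were given for Ezh1, Ezh2, Eed, Suz12 and Jarid2 and, in each RNA comparison, for up to 5 called members with the highest and 5 with the lowest change whose libraries did not overlap, and other chromatin genes were taken by smallest adjusted p in their list. The members, gene lists, tests and marker lists were chosen with earlier results of these data known. Alternatives were DESeq2 1.42.0, upper-quartile or RLE scaling, a filter of 5 CPM or none, fits of the compared groups only, a block for the replicate number, each library left out, other coverage minimums (20 reads) and a window of 500 bases. Counts without the members that hold another gene were added after seeing the data. Promoters were RefSeq sequences on GRCm38.p6, and all 232 measured positions within them fell on a CpG. Cbx2, Chd7, Hdac1, Hdac3, Kdm6b, Kmt2b and Mbd2 had no promoter entry.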

Additional observations from a re-analysis of the deposited data

How the results depend on the processing

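Of 201 counts recomputed under alternatives 170 stayed within 1.5 times of the count reported. Of 1343 single-gene values 63 lost and 13 gained a call. These values cover only the genes whose values in every library were given by the rule above, most of them picked for large and separated changes. Lost calls of other members given above, such as Hdac3 and Ring1 in RPCs, are outside this number. No called member changed sign, while some uncalled values near 0 did, such as Ezh2 between NMDA and aged cells (0.13, lowest -0.079). Members called between NMDA and young cells (19) were 11 with the 2 groups alone, and 16 to 30 with 1 library left out. Between aged and young cells (9) they were 14 with upper-quartile scaling, 14 with DESeq2, 3 with the 2 groups alone, 5 without the 6 members that hold another gene, and 6 to 22 with 1 library left out. Between NMDA and aged cells (10) they were 16 with the 2 groups alone and 4 to 19 with 1 library left out. With 1 library left out the counts for RPCs were 29 to 38 against young, 30 to 38 against aged and 30 to 41 against NMDA cells. The replicate number as a block gave 16 (NMDA against young), 6 (aged against young), 30 (RPC against young), 30 (RPC against aged), 31 (RPC against NMDA) and 5 (NMDA against aged), and for RRBS positions 109 after NMDA. No pairing by replicate number was seen. Same-numbered libraries had correlations of their deviations from group means of -0.057 to 0.083 over 13 RNA pairs and -0.035 to 0.043 over 18 RRBS pairs. With so few libraries per group these correlations cannot show whether samples were paired. Of 180 paralog ratio differences 7 changed sign, all with 1 library left out. Hdac2 to Hdac1 ran from -0.41 to 0.69 (NMDA against young), -0.37 to 0.74 (aged against young) and -0.17 to 0.030 (NMDA against aged), and Suv39h2 to Suv39h1 from -0.16 to 0.10 (NMDA against aged). Called member windows between aged and young cells (2) were 1 at 20 reads or more and 0 with windows of 500 bases either side, and with 1 library left out 1 to 4, against 1 to 2 after NMDA and 0 to 1 for RPCs. Called positions were 26 (NMDA against young) and 56 (aged against young) with the 2 groups alone, and with 1 library left out 4 to 108 after NMDA, 50 to 136 in aged cells and 116 to 162 in RPCs. The cause of these differences was not tested. At this depth no count in the pooled young libraries, as for Hells, allows up to 0.116 CPM by counting error alone.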
